A study of Mus musculus with 8 samples.

Results

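The kinase and lipid kinase complexes that start autophagy were described at the transcript level by 10 genes chosen for their known function: the ULK complex genes Ulk1, Ulk2, Atg13, Rb1cc1 and Atg101, and the class III phosphatidylinositol 3-kinase (PI3K) complex genes Becn1, Pik3c3, Pik3r4, Atg14 and Uvrag. All 10 were among the 55276 gene symbols counted, and all 10 passed the filter on low counts. The source was the esophageal epithelium of C57BL6 mice of 14 to 15 weeks, measured by bulk RNA sequencing. Every library came from live cells, negative for the dye DAPI and positive for integrin-b1 at the surface. These cells were sorted by Cyto-ID, a dye of autophagic vesicles, into a Cyto-ID Low and a Cyto-ID High fraction. Female1, Female2, Male1 and Male2 each gave 1 library of each fraction, 4 libraries per fraction. The labels name no transgene and no drug, and the fractions differ only in the gate on the dye. A high dye signal is a property of the vesicles present at the moment of sorting, and it was not measured here beyond the gate.

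Autophagy encloses cytoplasm in a double membrane that later fuses with the lysosome. The ULK complex is the switch that nutrient and energy signals act on: mTORC1 phosphorylates it and holds it off, AMPK can activate it, and the active kinase phosphorylates subunits of the class III PI3K complex. That lipid kinase makes phosphatidylinositol 3-phosphate (PI3P), the lipid on which the autophagosome is built. Most of this control acts on the proteins, so transcript levels give the amount of message for each subunit and no measure of kinase activity or of flux. In stratified epithelium, keratinocytes leave the basal layer, move up and shed their organelles, and autophagy is known to take part in that process.

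The libraries held 26285150 to 29301054 counts, and the 10 genes together took 0.0472% to 0.0588% of them. The fewest counts behind a subunit were the 234 of Ulk2 in the High library of Female1. The labels call the sorted cells basal. All 10 basal keratinocyte markers examined were lower in Cyto-ID High (summed level 22032 to 26255 CPM, counts scaled to a common library size, in Low and 2882 to 4577 in High), and all 10 markers of the layers above were higher (8656 to 26119 in Low and 147266 to 247566 in High). Krt4 and Krt13 alone took 0.858% to 2.53% of the counts in Low and 10.8% to 14.0% in High. Among the basal markers, Itgb1, the transcript of the integrin used in the sort, fell from a mean of 370 to 68.2 CPM (log2 fold change −2.44). Markers of other cell types had summed levels of 51.5 to 86.1 CPM in Low and 9.21 to 86.1 in High for leukocytes, 472 to 722 and 52.1 to 760 for fibroblasts, 22.4 to 38.8 and 6.64 to 47.3 for endothelium, and 45.2 to 70.1 and 5.14 to 68.0 for muscle. The lowest High value of each of these 4 lists was that of Male2. Of the markers in these lists 4 were called by edgeR. Dcn of fibroblasts fell from a mean of 114 to 15.3 CPM (log2 fold change −2.87), Acta2 of muscle from 24.2 to 8.37 (−1.54) and Cd207 of Langerhans cells from 1.13 to 0.234 (−2.24), while Cd52 of leukocytes rose from 2.22 to 4.17 (0.93). Cd3e and Cd3g, the T cell markers, had 0 counts in 2 and 1 of the High libraries. Gastric markers stood apart in both libraries of Female2. In bulk RNA, fewer cells of a type and less RNA per cell cannot be told apart, and the part of the markers in the results below was not tested beyond leaving out Female2 or Male2.

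The subunits of both complexes did not move as a block. In Cyto-ID High, Atg13, the adaptor that joins the ULK kinases to their scaffold, rose 2.62-fold (95% confidence interval 2.09 to 3.28), and Becn1, the regulatory subunit of the lipid kinase, rose 1.56-fold (1.24 to 1.96). Pik3r4, the pseudokinase subunit Vps15, fell 1.54-fold. The other 7 genes did not pass the test, with log2 fold changes from −0.52 for Ulk2 to 0.32 for Ulk1. Thus 2 of 10 genes were higher and 1 lower at an adjusted p under 0.05 (edgeR's quasi-likelihood test, Benjamini-Hochberg over 17344 genes). Over all tested genes 48.7% were called, 23.4% higher and 25.3% lower. The share of the 10 genes was 30% in this fit, and the counts depended on the fit. Under scaling by total counts 1 was higher and 7 lower (80% called, beside 61.7% of all genes), with the call of Becn1 lost (0.061, edgeR adjusted p 0.617). With a replicate block per animal, which added the calls of Ulk2 and Pik3c3, 2 were higher and 3 lower. That is 50% called, beside 53.8% of all genes in that fit (25.4% higher, 28.5% lower). Their median log2 fold change was 0.19, beside −0.090 for all tested genes. The p-values of the main fit rest on the spread between libraries left after sex and fraction, with information shared across genes. That fit does not pair the libraries of an animal, and all libraries come from only 4 animals.

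**Figure D1:**
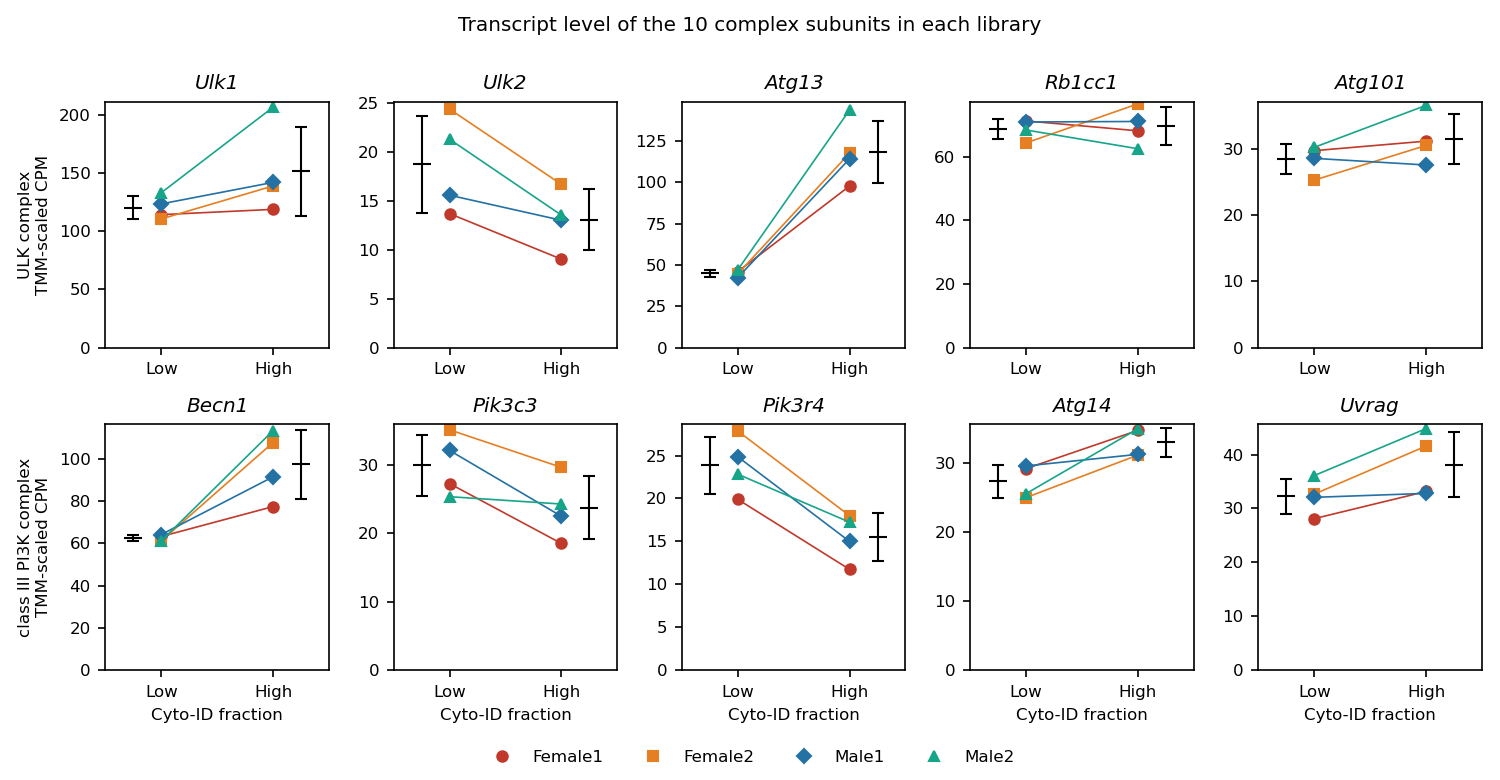
TMM-scaled CPM (vertical axes, each starting at 0) of the 10 subunits in the Cyto-ID Low and High library of each animal, with lines joining the libraries of an animal and black bars giving the mean and SD of 4 libraries. All 4 lines rise steeply for Atg13 (from 42.3 to 47.0 CPM up to 97.7 to 144 CPM) and fall for Pik3r4.

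The sequences in front of the genes with the largest called change in each direction are shown here because Atg13 and Pik3r4 moved apart while belonging to complexes that act in sequence. RefSeq promoters (GRCm38.p6) could be matched for 7 of the 10 genes, the exceptions being Rb1cc1, Becn1 and Pik3c3. The 250 bases before the RefSeq start are given 5′ to 3′ on the strand of the gene. This start can differ from that of the GENCODE gene positions given below, and the Pik3r4 window runs slightly past its GENCODE start. Capitals mark the motifs found, CCAAT (read here as its reverse complement ATTGG) and ACTTCCG. The Atg13 stretch lies at chr2:91710593-91710842 on the minus strand, and that of Pik3r4 at chr9:105642745-105642994 on the plus strand.
Atg13: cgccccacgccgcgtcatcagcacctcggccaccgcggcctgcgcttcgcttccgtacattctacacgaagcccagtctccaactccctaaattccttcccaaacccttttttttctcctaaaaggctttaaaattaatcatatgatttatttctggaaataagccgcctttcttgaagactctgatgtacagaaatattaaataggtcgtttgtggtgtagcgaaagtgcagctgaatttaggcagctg
Pik3r4: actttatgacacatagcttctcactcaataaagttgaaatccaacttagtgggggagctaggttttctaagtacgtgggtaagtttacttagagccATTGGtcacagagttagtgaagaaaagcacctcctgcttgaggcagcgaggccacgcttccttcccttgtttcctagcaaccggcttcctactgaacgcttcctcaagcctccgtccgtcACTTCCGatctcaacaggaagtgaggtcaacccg

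The Atg13 stretch held none of the 8 motifs searched on both strands, had a GC content of 46.4% and contained 14 CpG dinucleotides. That of Pik3r4 held CCAAT at 154 to 150 bases before the start and the ETS-type motif ACTTCCG at 34 to 28 bases before it, with 48.8% GC and 9 CpG. Across 27025 promoters the medians were 52% GC and 6 CpG. None of the 7 promoters held the E-box CACGTG, which is the core of the element bound by TFEB, its extended form TCACGTGA (which contains CACGTG), or the forkhead box O motif TGTTTAC. These were present in 6.05%, 0.803% and 3.09% of all promoters. The other 5 motifs were added after these gave no match. CCAAT was found in 2 of the 7 (Pik3r4 and Uvrag; 34.5% of all promoters), and the GC box CCGCCC in 4 (Ulk1 with 5 copies, Ulk2, Atg14 and Uvrag; 32.9%). ACTTCCG was found in 2 (Atg101 and Pik3r4; 4.98%), and TATAAA (13%) and TGACGTCA (1.62%) in none. The Atg14 window (chr14:47568435-47568684) lies inside the GENCODE span of that gene, so its matches are not in front of the GENCODE start. A match describes the letters of the window and does not show a binding site.

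In the ULK complex the adaptor was the only subunit that passed. Atg13 (chr2:91674618-91710576, minus strand, build GRCm38 as are all gene positions below) encodes the subunit whose phosphorylation by mTORC1 holds the complex off. In Cyto-ID Low it measured 45.9 CPM (Female1), 44.6 (Female2), 42.3 (Male1) and 47.0 (Male2), and 97.7, 118, 114 and 144 CPM in the High libraries of the same animals. Every High library lay above every Low library, and the 4 Low values were tightly grouped while the High values spread more widely. The difference came to 1.39 in log2 units (edgeR adjusted p 5e-05, SE 0.14), at the 90.7th percentile of all tested genes. Male2 had the largest rise, 1.61 on the log2 scale, and Female1 the smallest, 1.09. Harbi1, a transposase-derived gene that starts 276 bases away on the other strand and runs the opposite way, had mean levels of 4.67 CPM in Low and 4.01 in High and did not pass (log2 fold change −0.22, SE 0.20, edgeR adjusted p 0.418).

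The paralogous kinases Ulk1 and Ulk2 had fitted changes of opposite sign, and neither passed. Ulk1 (chr5:110784488-110810097, minus strand), the kinase most often tied to autophagy induction, measured 114, 111, 124 and 133 CPM in Low (Female1, Female2, Male1, Male2, the order used throughout) and 119, 139, 142 and 207 in High. High was above Low within all 4 animals, but the groups overlapped and Male2 stood highest. The log2 fold change was 0.32 (95% interval −0.035 to 0.67, edgeR adjusted p 0.126), and it was −0.26 under scaling by total counts. Without the High library of Male2 it was 0.18. Ulk2 (chr11:61775649-61855073, minus strand), a kinase that overlaps with Ulk1 in function, measured 13.7, 24.4, 15.6 and 21.3 CPM in Low and 9.03, 16.7, 13 and 13.5 in High. It was lower in High within all 4 animals, while the animals differed so much that the groups overlapped. The log2 fold change was −0.52 (95% interval −1.06 to 0.020, edgeR adjusted p 0.104). Under total counts it was −1.10 and was called lower (edgeR adjusted p 0.00341). With the animal as a replicate block, which takes out such differences between animals, the change of −0.51 passed (edgeR adjusted p 0.00689). Leaving out 1 library gave −0.71 to −0.32. It was −0.70 and passed without the Low library of Female1 (edgeR adjusted p 0.0363), and it was −0.32 without the Low library of Female2 and −0.35 without the High library of Female1, where it did not pass (edgeR adjusted p 0.315 and 0.244).

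With TMM scaling the scaffold and the stabilising subunit had the fitted changes nearest to 0, an order that did not hold under total counts. Rb1cc1 (chr1:6206197-6276648, plus strand) encodes FIP200, the large scaffold of the complex. It measured 71.3, 64.3, 70.9 and 68.4 CPM in Low and 68.1, 76.6, 71.1 and 62.5 in High, and High was above Low in 2 animals and below it in 2. The log2 fold change was 0.017 (95% interval −0.26 to 0.29, edgeR adjusted p 0.928). Its sign was not stable across settings, and under total counts it was called lower (−0.54, edgeR adjusted p 0.00789). Atg101 (chr15:101284272-101290945, plus strand), the partner that keeps Atg13 from degradation, measured 29.8, 25.3, 28.6 and 30.3 CPM in Low and 31.2, 30.6, 27.6 and 36.6 in High. The groups overlapped, and the log2 fold change was 0.14 (95% interval −0.16 to 0.45, edgeR adjusted p 0.415). Under total counts it was called lower (−0.43, edgeR adjusted p 0.0088).

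In the class III PI3K complex the regulatory subunits Becn1 and Pik3r4 moved in opposite directions. Becn1 (chr11:101285952-101302286, minus strand) encodes Beclin 1, which Bcl2 proteins can bind and hold back. It measured 63.3, 61.2, 64.2 and 61.2 CPM in Low and 77.4, 108, 91.6 and 113 in High. All High libraries were above all Low libraries, and Female1 showed the smallest rise. The log2 fold change was 0.64 (edgeR adjusted p 0.00521, SE 0.15). Under scaling by total counts only it was 0.061 and the call was lost (edgeR adjusted p 0.617). Exons of Cntd1 on the other strand overlap 3104 bases of Becn1, 43.9% of its exon sequence. Cntd1 had only 6 to 64 counts per library, at most 3.10% of those of Becn1, and itself fell (log2 fold change −1.41, edgeR adjusted p 0.0386).

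The catalytic subunit and its pseudokinase partner were both lower in Cyto-ID High within every animal. Pik3r4 (chr9:105642978-105687657, plus strand) encodes Vps15, which anchors and stabilises the lipid kinase. It measured 19.9, 27.9, 24.9 and 22.8 CPM in Low and 11.7, 18.0, 15.0 and 17.2 in High, and all High libraries were below all Low libraries. On the log2 scale the change was −0.63 (SE 0.18, edgeR adjusted p 0.0150), and −1.21 under total counts (edgeR adjusted p 0.000263). Pik3c3 (chr18:30272747-30348126, plus strand) encodes Vps34, the lipid kinase itself, and measured 27.3, 35.1, 32.1 and 25.4 CPM in Low and 18.5, 29.6, 22.5 and 24.3 in High. The groups overlapped, and the difference within Male2 was small. The log2 fold change was −0.34 (95% interval −0.73 to 0.060, edgeR adjusted p 0.149). It was −0.20 without the High library of Female1, and under total counts it was −0.92 and was called (edgeR adjusted p 0.00123). In the fit with a replicate block per animal it was again −0.34 and passed (edgeR adjusted p 0.0447).

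Atg14 and Uvrag are alternative subunits that direct the lipid kinase to the forming autophagosome (Atg14) or to endosomes and later steps (Uvrag). Atg14 (chr14:47540893-47570649, minus strand) measured 29.1, 24.9, 29.5 and 25.5 CPM in Low and 34.7, 31.1, 31.2 and 34.9 in High. The groups did not overlap, but the log2 fold change of 0.27 (95% interval −0.0092 to 0.56) did not pass (edgeR adjusted p 0.103). It passed with RLE size factors (0.34, edgeR adjusted p 0.0365), and it was −0.29 under total counts. Uvrag (chr7:98885021-99141141, minus strand) measured 28.1, 32.7, 32.1 and 36.1 CPM in Low and 33.1, 41.6, 32.8 and 44.8 in High. It was higher in High within all 4 animals with overlapping groups, and its log2 fold change of 0.24 (95% interval −0.091 to 0.58) did not pass (edgeR adjusted p 0.214). Under total counts Uvrag was called lower (−0.34, edgeR adjusted p 0.0247).

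Counted by overlap alone, 3 of the 10 genes had every High library above every Low library (Atg13, Becn1 and Atg14) and 1 had every High library below (Pik3r4). Over all tested genes the groups did not overlap in 48.6%, with 23.6% above and 24.9% below. With the replicate block 2 of the 10 were higher (Atg13 and Becn1) and 3 lower (Ulk2, Pik3c3 and Pik3r4), or 50% of the 10, beside 53.8% of all genes called, 25.4% higher and 28.5% lower. Without both libraries of Female2, and without both of Male2, Atg13 and Becn1 were again higher, Pik3r4 was again lower and no other subunit passed.

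Scaling by total counts moved the value of each of the 10 genes more than leaving out any 1 library did, which was not so for the other scalings. The trimmed mean of M values (TMM) factors were 1.16 to 1.30 in Low and 0.679 to 0.944 in High. Under total counts only, the median of all tested genes was −0.64, with 61.7% of genes called, 12.6% higher and 49.1% lower. The median of the 10 genes was then −0.38, and 80% of them were called. Atg13 alone was higher (0.81), Becn1 and Atg14 did not pass, and the other 7 were lower. Ulk1, Rb1cc1, Atg101, Atg14 and Uvrag changed sign under this scaling, whereas Atg13 and Pik3r4 kept their direction and their call in all 20 alternatives run.

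**Figure D2:**
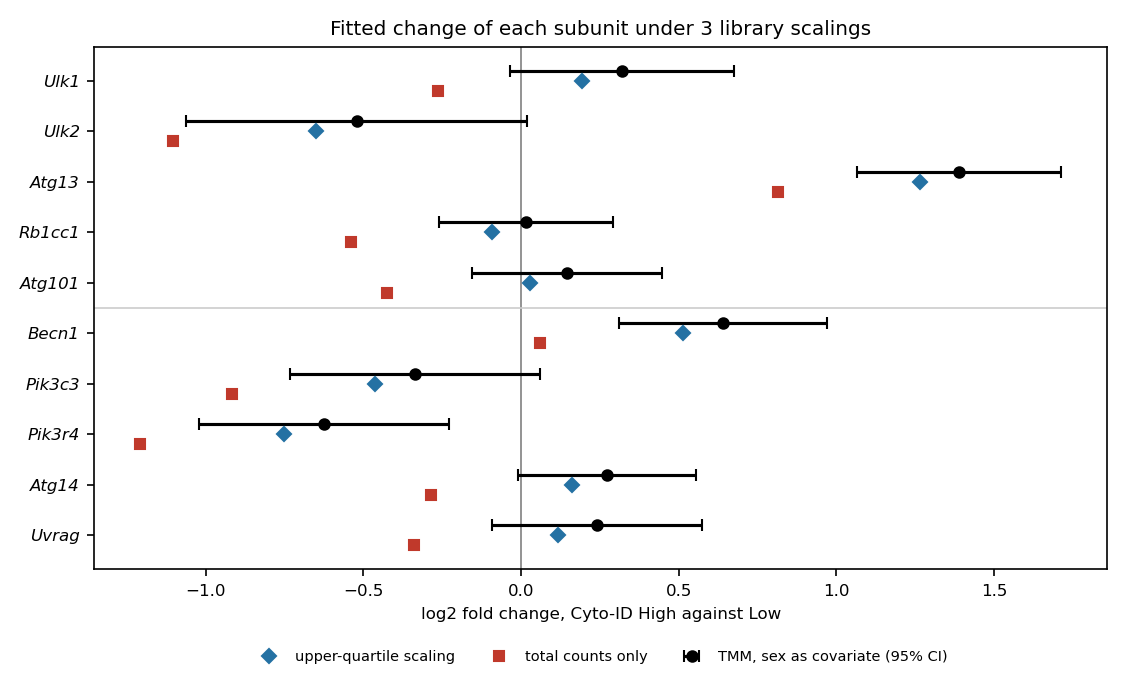
Log2 fold change of each subunit in Cyto-ID High against Low (horizontal axis) with TMM (black circles, 95% confidence intervals), upper-quartile scaling (blue diamonds) and total counts only (red squares); ULK complex genes are above the line and PI3K complex genes below. Total counts shift every gene to the left, Atg13 from 1.39 to 0.81 and Becn1 from 0.64 to 0.061.

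The ratio of 2 subunits within a library does not depend on how libraries are scaled. Rb1cc1 to Atg13, scaffold to adaptor, had count ratios of 1.55, 1.44, 1.67 and 1.45 in Low and 0.697, 0.652, 0.623 and 0.435 in High. The ratio was lower in High within all 4 animals, and the groups did not overlap. It compares counts of genes of unequal length and gives no order of their levels. The mean log2 ratio differed by −1.37 (exact permutation p 0.0286, the smallest that 4 against 4 libraries allow; 0.0571 after Benjamini-Hochberg adjustment over 4 ratios). Pik3c3 to Becn1, kinase to regulator, had ratios of 0.431, 0.574, 0.50 and 0.414 in Low and 0.239, 0.275, 0.246 and 0.214 in High. The groups again did not overlap, and the log2 ratio differed by −0.97 (exact permutation p 0.0286, adjusted 0.0571). Neither ratio passed after adjustment. With only 2 of the 4 ratios at the smallest p, their adjusted value was 0.0571 whatever the size of the difference. Missing the threshold therefore says nothing about that size.

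Ulk1 to Ulk2 had ratios of 8.36, 4.54, 7.94 and 6.26 in Low and 13.2, 8.34, 10.9 and 15.3 in High, with overlapping groups and a rise within every animal. The log2 ratio differed by 0.82 (exact permutation p 0.0571, adjusted 0.0762). Atg14 to Uvrag had ratios of 1.04, 0.763, 0.921 and 0.707 in Low and 1.05, 0.748, 0.951 and 0.778 in High. This ratio differed between animals more than between the fractions of an animal, and its log2 difference was 0.042 (exact permutation p 0.714, adjusted 0.714). Tests on the 4 animals as pairs could not go below an exact p of 0.125.

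Levels of different genes were compared as CPM per kb of the principal transcript. In Cyto-ID Low the order of the mean levels was Ulk1 (23.1), Atg101 (22.4), Becn1 (14.3), Atg13 (12.7), Pik3c3 (9.20), Rb1cc1 (9.03), Atg14 (7.31), Uvrag (6.25), Pik3r4 (5.02) and Ulk2 (3.26), a 7.09-fold span. Neighbours whose 4 libraries did not overlap were Atg101 and Becn1, Becn1 and Atg13, Atg13 and Pik3c3, and Rb1cc1 and Atg14. In Cyto-ID High Atg13 came first (33.3 CPM per kb), followed by Ulk1 (29.1), Atg101 (24.8), Becn1 (22.3), Rb1cc1 (9.15), Atg14 (8.84), Uvrag (7.38), Pik3c3 (7.29), Pik3r4 (3.26) and Ulk2 (2.27), a 14.6-fold span. There the neighbours without overlap were Becn1 and Rb1cc1, and Pik3c3 and Pik3r4. Atg13 thus moved from 4th to 1st place, though its High range overlapped that of Ulk1. With the union of all annotated exons as the length, Atg13 was 3rd in Low and 1st in High, Becn1 was 4th in both, and Pik3r4 took the last place from Ulk2.

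**Figure D3:**
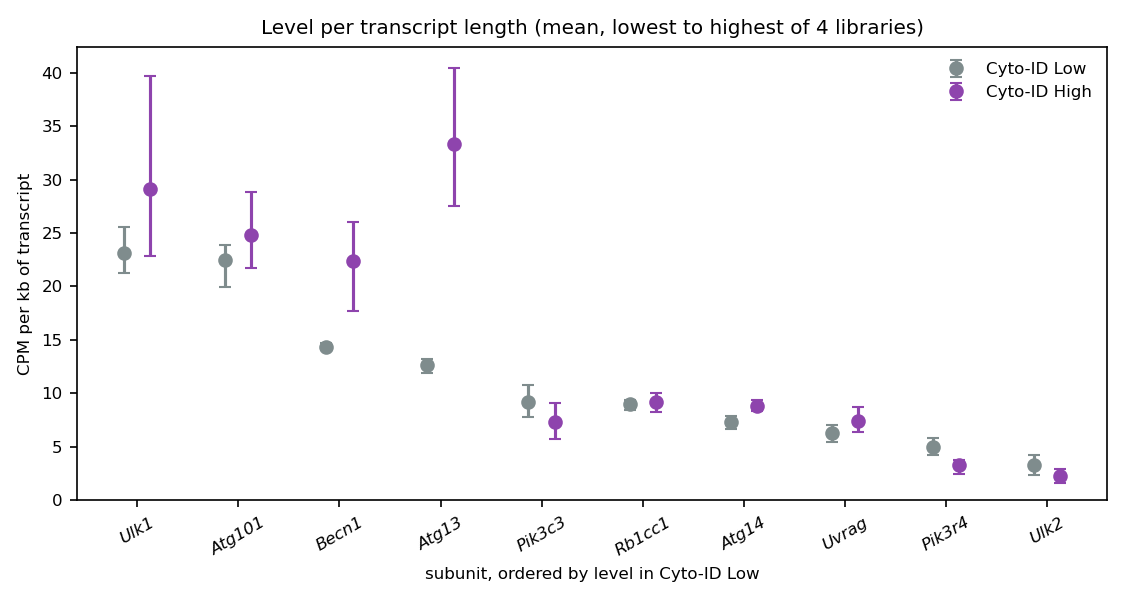
CPM per kb of transcript (vertical axis, from 0) of the 10 subunits, ordered by their level in Cyto-ID Low; points are means and bars run from the lowest to the highest of 4 libraries. Atg13 rises from 12.7 to 33.3, above all other subunits by its mean, while the 6 genes from Pik3c3 to Ulk2 stay at or below 10.8 in every library.

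The fraction difference of the subunits was also compared between the sexes, with 2 animals of each. With so few animals the outcome of this test does not show that the sexes acted alike. No subunit passed for a sex by fraction interaction (edgeR's quasi-likelihood test, 0 of 10, smallest unadjusted p 0.378), and 0 of all 17344 genes passed (0.00% at an adjusted p under 0.05 and 0.110%, or 19 genes, at an unadjusted p under 0.05). That smallest p belonged to Atg13, whose fitted rise was greater in males by 0.28 on the log2 scale (SE 0.30). The 0.110% of all genes is far below the share that an unadjusted threshold of 0.05 gives by chance. The p-values of this interaction test thus ran too high, for reasons that were not tested, and its lack of calls says little.

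The genes around the complexes were examined in 7 lists, whose counts are to be read beside the 48.7% of all tested genes that were called (23.4% higher, 25.3% lower), or under total counts beside 61.7% (12.6% higher, 49.1% lower). Of the 8 partners and inhibitors of the PI3K complex 7 were tested, 4 were higher, 1 lower and 2 did not pass (71.4% called), with a median of 0.66. Under total counts 1 was higher and 2 lower, or 42.9% called beside 61.7% of all genes. Bcl2, which binds Beclin 1, fell from 11.6 ± 0.6 to 2.49 ± 0.28 CPM (SD, n = 4; log2 fold change −2.22, SE 0.17, edgeR adjusted p 1.4e-05). Bcl2l1, a Bcl2 protein that also binds Beclin 1 and is named after its values were seen, rose from 20.5 ± 6.0 to 37.8 ± 6.9 CPM (0.89, edgeR adjusted p 0.00776), but it did not pass under total counts (0.30). Dapk1, a kinase that phosphorylates Beclin 1 and loosens it from Bcl2 proteins, rose from 8.06 ± 0.51 to 18.0 ± 4.1 CPM (1.15, edgeR adjusted p 0.000717; 0.57 under total counts). Rubcn, which binds the Uvrag form of the complex and inhibits it, rose from 32.1 ± 2.0 to 50.9 ± 8.4 CPM (0.66, edgeR adjusted p 0.00386), but its value under total counts was 0.082 and did not pass. Nrbf2, a partner of Atg14, and Ambra1, a Beclin 1 cofactor, did not pass (0.13 and 0.27, edgeR adjusted p 0.707 and 0.183), and both were negative under total counts, where Ambra1 was called lower (−0.31, edgeR adjusted p 0.0424). The 3 ULK paralogues not in the complex all passed, Ulk3 higher (0.39, edgeR adjusted p 0.0483; −0.18 under total counts) and 2 lower. Those were Ulk4 (−1.45) and Stk36 (−1.96), which are named after their values were seen and had low levels, at most 11 counts in a High library for Stk36.

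Among the 15 genes of mTORC1 and AMPK, the kinases upstream of ULK, 5 were higher, 3 lower and 7 did not pass, with a median of 0.20. The share called, 53.3%, was near the 48.7% of all tested genes, and under total counts 2 were higher and 8 lower (66.7%, beside 61.7%). Mtor, the kinase of mTORC1, did not pass (0.20, edgeR adjusted p 0.268), and it was called lower under total counts (−0.36, edgeR adjusted p 0.0425). Prkab1, an AMPK beta subunit, fell from 119.6 ± 22.2 to 41.7 ± 14.0 CPM (−1.52, edgeR adjusted p 0.000181), and Strada, a pseudokinase that activates the AMPK kinase Stk11, rose from 14.0 ± 1.4 to 28.3 ± 8.0 CPM (1.00; 0.41 under total counts). Of 19 effectors and phosphatases of PI3P, the product of the lipid kinase, 11 were higher, 1 lower and 7 did not pass (63.2% called, beside 48.7% of all genes), with a median of 0.52. Under total counts 3 were higher and 6 lower, or 47.4% called beside 61.7% of all genes. Mtmr1, a phosphatase of the myotubularin family, had the largest rise (1.46, from 40.1 ± 3.3 to 109.98 ± 27.29 CPM; 0.87 under total counts), and Wdr45, a PI3P-binding protein, fell by 0.60 (−1.15 under total counts). Of 9 ubiquitin enzymes acting on the complexes 3 were higher, 3 lower and 3 did not pass (66.7% called, beside 48.7% of all genes). Under total counts 2 were higher and 6 lower (88.9%, beside 61.7%). Usp20, a deubiquitinase that stabilises ULK1, rose by 1.91, and Nedd4, a ubiquitin ligase, fell by 1.12 on the log2 scale (−1.71 under total counts).

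Of 22 genes of the later autophagy machinery 11 were higher, 4 lower and 7 did not pass (68.2% called, beside 48.7% of all genes), with a median of 0.34. Under total counts 3 were higher and 9 lower, or 54.5% called beside 61.7% of all genes. Atg9a, the membrane protein that seeds the autophagosome, rose by 1.12 (0.54 under total counts) and Atg4c, a protease of the LC3 family, fell by 1.08 (−1.65 under total counts). Of 12 transcription factors tied to autophagy genes 3 were higher, 2 lower and 7 did not pass, with a median of −0.082. The share called, 41.7%, was near the 48.7% of all genes, and under total counts 3 were higher and 7 lower (83.3%, beside 61.7%). Cebpb rose by 1.99 and E2f1 fell by 1.62, while Tfeb, the factor named for lysosome and autophagy genes, did not pass (−0.30, edgeR adjusted p 0.227; −0.90 under total counts, where it passed). Over all 87 tested genes of these lists 38 were higher and 16 lower (62.1% called, beside 48.7% of all genes), with a median of 0.22. Under total counts the split was 14 higher and 40 lower (62.1% called, beside 61.7% of all genes, 12.6% higher and 49.1% lower), with a median of −0.35. The medians of the lists under that scaling were −2.03 for the ULK paralogues (0 higher, 2 lower), 0.082 for the partners of the PI3K complex, −0.36 for mTORC1 and AMPK, −0.037 for PI3P effectors, −0.68 for the ubiquitin enzymes, −0.24 for the later machinery and −0.67 for the transcription factors.

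**Figure D4:**
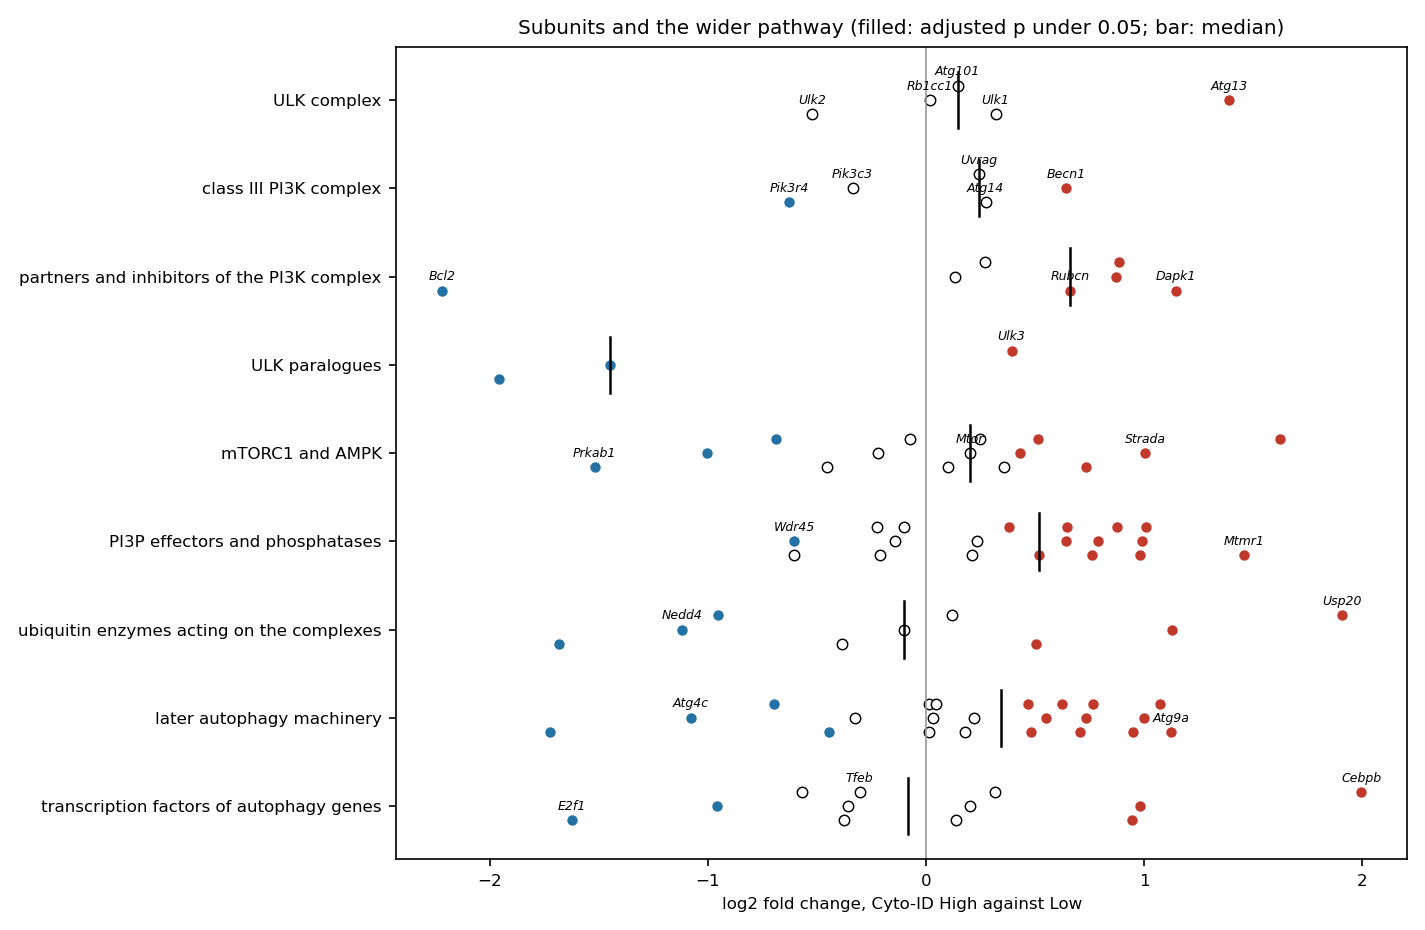
Log2 fold change in Cyto-ID High against Low (horizontal axis) of the 2 complexes and of 7 lists of genes around them; each circle is a gene, filled red or blue where it was called higher or lower, open where it did not pass, and the black bars are medians. In the complexes 3 of 10 circles are filled, and the list with the lowest called gene, Bcl2 at −2.22, also has a median of 0.66.

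The genes whose levels tracked Ulk1 and Pik3c3 most closely over the 8 libraries were sought among 11043 genes with a mean of at least 5 CPM; Ulk2 was not examined in this way. For Ulk1 they were Mnt (Pearson r 0.986), Ptpa (0.980) and Aamp (0.977), and for Pik3c3 they were Dnaja3 (0.997), Fam122b (0.978) and Ash2l (0.976). None of these 6 passed in Cyto-ID High against Low (edgeR adjusted p 0.0945 to 0.251). They were picked for likeness to 2 genes that did not pass, so this is no separate result. With 8 libraries of 4 animals in 2 fractions the correlations describe the libraries only.

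Reads of a few subunits could be shared with other genes in ways the counting decided. Rb1cc1 has a near-identical copy, Gm13961 (94.8% identity over 4807 bases), which had 62 to 122 counts, at most 6.08% of those of Rb1cc1, with a log2 fold change of −0.038. Uvrag shares a stretch of 202 to 388 bases at an identity of at least 90% with transcripts of 146 other genes. Antisense transcripts overlap exons of Atg14 (239 bases, 3 to 7 counts), Rb1cc1 (558 bases, 16 to 56 counts) and Uvrag (1589 bases, 0 to 4 counts). The values of Becn1, Rb1cc1, Atg14 and Uvrag are uncertain, since use of the strand in counting and the treatment of shared reads are not given. The counts of the other genes do not bound this, as shared reads may have been dropped from both genes.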

How the data were processed

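RNA-seq libraries of 8 sorted fractions (4 Cyto-ID Low, 4 Cyto-ID High) were used. The authors deposited raw counts per gene symbol, and each of the 8 columns was assigned to its sample by the names of animal and fraction. STAR 2.7.3, DESeq2 and GRCm38 are listed in the submitters' processing notes, with no role given. The counting tool, annotation and strand setting are not given in the sources used here. The 10 genes, the gene lists and the tests were chosen with earlier results of these data known.

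The quasi-likelihood test of edgeR 4.0.16 (R 4.3.3) was used: filterByExpr by fraction (17344 genes kept), TMM, a design of sex and fraction in glmQLFit, Benjamini-Hochberg over all genes, threshold 0.05, two-sided. CPM are TMM-scaled, and log2 CPM have a prior count of 2. Within-library ratios were compared by exact permutation over 70 assignments. Named genes were the 10 subunits, and from each list the gene with the largest called change in each direction at a mean of at least 5 CPM, plus Rubcn, Nrbf2, Ambra1, Bcl2, Mtor and Tfeb. Gene positions came from GENCODE M21 (GRCm38), where 53388 of 55276 symbols were found, and promoters from RefSeq (GRCm38.p6).

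Alternatives were RLE, total-count and upper-quartile scaling, DESeq2 1.42.0, limma-voom (limma 3.58.1), robust dispersion, no filter, a minimum of 10 counts in each library, a replicate block per animal, no sex term, and each library left out. Leaving out both libraries of Female2 or of Male2 was added after seeing the data. The pairs come from the animal names. When checked, each library's deviation from its fraction mean had a Pearson r across genes with that of its partner of 0.43 (Female1), 0.32 (Female2), −0.016 (Male1) and 0.28 (Male2), and with −0.37 to 0.35 between animals. No 2 libraries of a fraction agreed within sampling noise (chi-square per degree of freedom at least 19.8). On counts simulated for this comparison, the fit called 85% of 200 genes changed by 1.5 on the log2 scale, with 11 false calls of 16911 genes, and the fit with the block 84%, with 10. The largest change of a subunit in the main fit was 1.39 (Atg13), and recovery at the sizes seen in the subunits was not tested. Recovery with a share of differing genes as large as the 48.7% called in the data was not tested either.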

Additional observations from a re-analysis of the deposited data

Results flagged for a closer look

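Dixon's test was run on 42 groups of 4 libraries, and chance flags about 1 in 20 groups. It singled out 2, both from Female2 and neither for a subunit. The summed level of the gastric markers was 19.4 CPM in the Low library of Female2, where the other 3 had 0.513 to 1.11, and 117 CPM in its High library, where they had 0.839 to 1.03. Without both libraries of Female2, Atg13, Becn1 and Pik3r4 were called in the same directions.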

How the results depend on the processing

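The number of genes called, 8440, ran from 8066 to 10708 over the alternatives with all libraries and from 7269 to 8106 with a library left out, and was 7570 without Female2 and 7279 without Male2. Atg13 (0.81 to 1.47) and Pik3r4 (−1.21 to −0.50) were called in all 20 alternatives, and Becn1 in all but total counts (0.061). Total counts turned Ulk1 to −0.26, Rb1cc1 to −0.54, Atg101 to −0.43, Atg14 to −0.29 and Uvrag to −0.34. Rb1cc1 was also negative with upper-quartile scaling (−0.093), with no filter (−0.024) and without both libraries of Female2 (−0.034), and ran from −0.034 to 0.069 with a library left out. Ulk2 passed with upper-quartile scaling (−0.65) and no filter (−0.56), Pik3c3 with upper-quartile scaling (−0.46), and with DESeq2 Ulk1 (0.38) and Atg14 (0.34) passed. With a library left out Ulk1 ran from 0.18 to 0.40, Ulk2 from −0.71 to −0.32, Atg101 from 0.064 to 0.23, Uvrag from 0.15 to 0.34 and Pik3c3 from −0.48 to −0.20. The replicate block added the calls of Ulk2 (−0.51) and Pik3c3 (−0.34) and changed no other call among the 10. With a library left out, log2 ratios ran from 0.64 to 0.98 for Ulk1 to Ulk2, −0.045 to 0.14 for Atg14 to Uvrag, −1.45 to −1.22 for Rb1cc1 to Atg13 and −1.04 to −0.88 for Pik3c3 to Becn1. Without the High library of Female2, Ulk1 to Ulk2 also reached the smallest exact p, which lowered the shared adjusted value. There all but Atg14 to Uvrag passed (exact permutation, adjusted p 0.0381 each), at 0.98, −1.41 and −1.03. The causes were not tested.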
